A study of Mus musculus with 60 samples.

Results

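Ube3a, Ube3b, Huwe1, Herc1, Herc2, Hectd4, Nedd4l, Hecw2 and Hace1 are 9 genes for HECT-domain ubiquitin ligases linked to brain development. They were chosen by symbol, with Trip12, a further ligase of the same class, left out because it is the gene mutated in these mice. Each symbol matched 1 Ensembl ID, so the 9 members are 9 of the 18088 genes measured, and all 9 passed the filter on low values. Prefrontal cortex of C57BL/6J mice was profiled by RNA sequencing on postnatal day 25, after 3 weeks of treatment that began on postnatal day 3, ended on day 24 and reached the pups through the mother's milk. Drugged mice received fluoxetine, a serotonin reuptake inhibitor, or lithium, a mood stabiliser, and the remaining mice received vehicle. The labels put 60 libraries into 12 groups of 5. These were Trip12 HT (heterozygous) males and females given fluoxetine, lithium or vehicle, and WT (wild-type) males and females given fluoxetine, lithium or vehicle. All groups shared the strain and the milk-borne route, and no dose, litter, batch or allele was given. The replicates are separate libraries by their labels, but nothing says whether pups shared a dam, so p-values measure the spread between these libraries.

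A HECT ligase receives ubiquitin from an E2 enzyme on a cysteine of its own HECT domain and then passes it to the substrate that it has bound. The family is named after the domain of Ube3a (E6AP), whose loss from the maternal allele in neurons causes Angelman syndrome in humans. Herc1, Herc2 and Huwe1 are giant proteins that carry the HECT domain at their end, and Herc2 binds Ube3a and stimulates it. Nedd4l and Hecw2 belong to the Nedd4 group, which binds substrates through WW domains; Nedd4l removes epithelial and voltage-gated sodium channels from the membrane. Hace1 targets the active form of the small GTPase Rac1. Ube3b and Hectd4 are less well characterised, and variants of either cause neurodevelopmental disorders in humans.

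Hecw2 and Hectd4 were the members that fell under lithium in both genotypes, and the stretches of their promoter windows that lie outside annotated exons are shown for that reason. The sequences come from the RefSeq table of build GRCm38.p6, read 5′ to 3′ on the gene's strand, with capitals on each GC box (GGGCGG, or its reverse complement CCGCCC). The Hecw2 stretch is chr1:54195169-54195284 on the minus strand, and the Hectd4 stretch is chr5:121219969-121220218 on the plus strand.
Hecw2: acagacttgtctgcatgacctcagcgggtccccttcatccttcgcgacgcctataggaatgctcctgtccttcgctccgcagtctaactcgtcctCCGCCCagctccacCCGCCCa
Hectd4: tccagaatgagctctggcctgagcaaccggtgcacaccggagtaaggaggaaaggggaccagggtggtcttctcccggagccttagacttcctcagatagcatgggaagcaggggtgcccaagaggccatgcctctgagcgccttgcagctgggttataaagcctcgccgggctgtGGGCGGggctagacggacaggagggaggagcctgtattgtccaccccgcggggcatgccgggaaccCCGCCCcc
Each stretch held 2 GC boxes, and the Hectd4 stretch also held the letters TATAAA. On either strand these letters occurred in 13.6% of all windows. In the whole windows of 300 bases, 34 CpG dinucleotides were counted for Hecw2 and 16 for Hectd4, against a median of 7 over 32851 windows in the table. The members' windows ran from 16 in Hectd4, the fewest, to 38 in a Herc2 window, so high counts were not particular to these genes. On both strands, a GC box occurred in at least 1 window of 7 of the 8 members with an entry (all but Hace1), and in 35.7% of all windows. A cAMP response element (TGACGTCA) and an E-box (CACGTG) were in none of the members' windows, and occurred in 1.79% and 7.15% of all windows. These matches describe letters in a window and show no binding.

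Depth moved with treatment: libraries held 32654674 to 36624113 reads assigned to genes with fluoxetine, 25135647 to 35858996 with lithium and 26591584 to 30985097 with vehicle. The defining markers of cortical excitatory neurons were present in every library, with Slc17a7, the vesicular glutamate transporter, at 36450 to 55987 normalized counts. Genes of the neighbouring striatum and olfactory bulb were also present and uneven, with the dopamine receptor Drd2 at 16.0 to 399 and the bulb transcription factor Eomes at 1.68 to 1099 normalized counts. WT fluoxetine male 2 stood apart from all other libraries in how its values depended on transcript length, and HT vehicle male 1 stood apart in how they depended on GC content. Values without them are given beside the results they moved. Trip12 itself had 5489, 6272 and 6953 normalized counts (lowest, median, highest of 30) in HT libraries, against 4394, 5812 and 6362 in WT libraries. That is 0.11 ± 0.02 higher in HT on the log2 scale (7.90%, limma, adjusted p = 0.0014), with 28 of 30 HT libraries above the mean of the matching WT group. The highest HT value was that of HT vehicle male 1 and the lowest WT value that of WT fluoxetine male 2. For Trip12 the difference without these libraries is not given here. Reads summed over a gene need not fall with an allele that is still transcribed, so Trip12 gives no check of the HT label, and HT and WT below stand for the libraries labelled so.

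All 9 ligases were well expressed in this cortex. The authors' values are counts scaled between libraries; divided by the longest coding transcript's length they allow genes to be ordered. Huwe1 was highest at 838 ± 64.4 normalized counts per kilobase (SD, n = 60 libraries), above 87.0% of genes tested. Hecw2 was lowest at 172 per kilobase, still above 54.0% of genes tested. Between them came Hectd4 at 705, Ube3b at 697, Herc2 at 654, Herc1 at 614, Nedd4l at 609, Hace1 at 469 and Ube3a at 379 per kilobase. Several neighbours in that order could not be separated. Hectd4 exceeded Ube3b in 31 of 60 libraries, and Herc1 exceeded Nedd4l in 36. Ube3b exceeded Herc2 in 43 of 60. Nedd4l was above Hace1 in all 60 libraries and Ube3a above Hecw2 in all 60, by a ratio of means of 2.20. Herc2 was above Herc1 in 56 of 60 libraries, and both Huwe1 above Hectd4 and Hace1 above Ube3a held in 57 of 60.

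**Figure D1:**
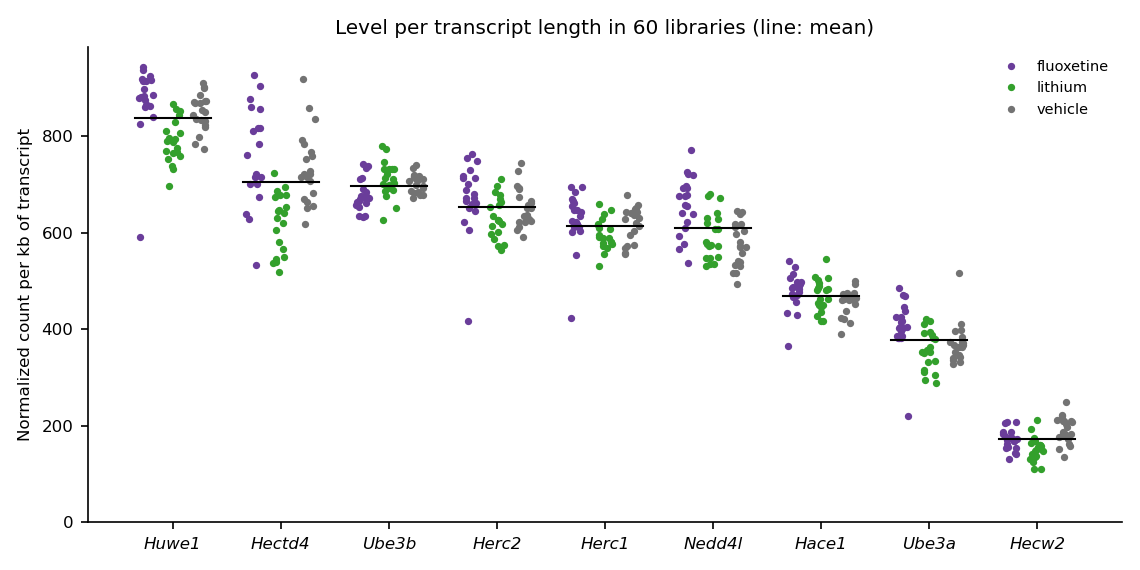
Normalized counts per kilobase of transcript for the 9 ligases on a linear axis from 0; each point is 1 of 60 libraries, coloured and set side by side as fluoxetine, lithium and vehicle, and the horizontal lines mark means over all 60. Huwe1 has the highest mean, 838, and Hecw2 the lowest, 172, while the points of Hectd4 and Ube3b and those of Herc1 and Nedd4l overlap over most of their range.

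The genes differ in how far their levels vary. Ube3b was the steadiest, at 3622 ± 170 normalized counts (SD, n = 60) with a coefficient of variation of 4.70%. Hecw2 was the most variable, at 1935 ± 329 and 17.0%, followed by Hectd4 at 10913 ± 1552 and 14.2% and Ube3a at 3731 ± 488 and 13.1%. The remaining 5 lay between 7.27% for Hace1 and 10.2% for Nedd4l, with Herc1 at 7.40%, Huwe1 at 7.69% and Herc2 at 8.63%. Hecw2 also had the widest spread between group means, from 1534 ± 319 (SD, n = 5) in HT lithium males up to 2372 ± 268 in HT vehicle males, a ratio of 1.55. Hectd4 ran from 8785 ± 1050 in WT lithium females up to 12430 ± 1770 in HT vehicle males, a ratio of 1.41. The smallest ratios, 1.11, were those of Ube3b and Hace1. Ube3a had both its extremes in the libraries that stood apart, 2178 in WT fluoxetine male 2 and 5084 in HT vehicle male 1. Its locus (chr7:59228750-59311536, plus strand) lies opposite 5 transcribed genes in the table, among them Snhg14, whose RNA silences the paternal Ube3a allele in neurons, at a mean of 7129 normalized counts. Snhg14 is annotated from 59307924 to 59975759, so as annotated it overlaps only the 3′ end of the Ube3a locus. Being on the opposite strand, it is transcribed towards Ube3a, and 59307924 is its annotated end. Another of the 5, 9330162G02Rik (59223847 to 59254788), covers the Ube3a start, at a mean of 1119 normalized counts. The libraries were stranded, but the strand setting of the counting is not given in the sources used here. Whether reads of Ube3a were separated from those of Snhg14 and the other opposite genes where they overlap is therefore not known.

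**Figure D2:**
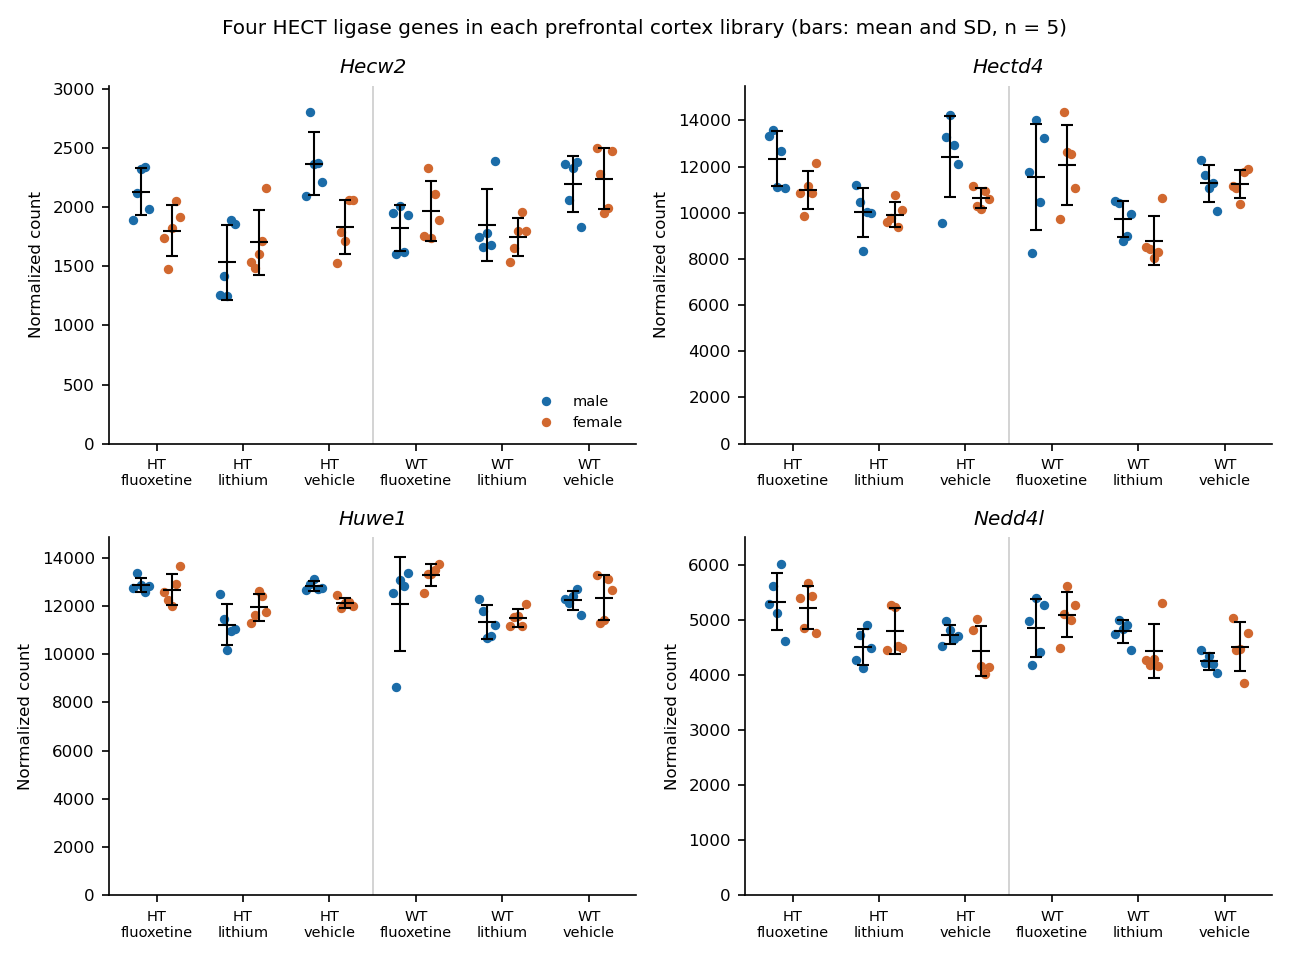
Normalized counts of Hecw2, Hectd4, Huwe1 and Nedd4l in the 12 groups, 5 libraries a group; points are libraries, males and females by colour, and bars are group means with SD. The HT lithium males lie below the HT vehicle males for Hecw2, and the lowest point for Huwe1, 8618, is WT fluoxetine male 2.

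The first comparison asked whether any of the other ligases differed between Trip12 HT and WT cortex, as a compensating gene would. None of the 9 members passed the test in either direction over all arms (limma, adjusted p under 0.05), where 5.06% of the 17804 genes tested were called. Unadjusted, 1 of 9 had p under 0.05, against 20.5% of all genes, and edgeR and DESeq2 on the recovered reads also called 0. The differences had a median of 0.02 on the log2 scale over the 9 members, against 0.00 over all genes tested, with 7 positive and 2 negative. The signs depended in part on 1 library. Without WT fluoxetine male 2, Ube3a (−0.012) and Herc1 (−0.003) were below 0, and Huwe1 was at 0.002. Herc2 had the smallest p. Its normalized counts were 8965, 10147 and 11525 (lowest, median, highest of 30) in HT libraries, against 6372, 9940 and 11633 in WT libraries. The ranges overlapped almost completely, and 19 of 30 HT libraries were above the mean of the matching WT group. The log2 difference was 0.06 ± 0.03 (95% interval 0.002 to 0.13, adjusted p = 0.23). The lowest WT value was that of WT fluoxetine male 2, without which the difference was 0.04 ± 0.02 (adjusted p = 0.31) and 0 of 9 members had an unadjusted p under 0.05. Nedd4l had 4015, 4779 and 6010 in HT libraries, against 3848, 4478 and 5615 in WT libraries, a log2 difference of 0.05 ± 0.03 (adjusted p = 0.30).

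For the other members the differences were as small. Ube3a averaged 3751 ± 503 normalized counts in HT libraries and 3710 ± 480 in WT libraries (SD, n = 30 each), with 15 of 30 HT libraries above the matching WT mean and a log2 difference of 0.02 ± 0.04. Huwe1 averaged 12287 ± 760 in HT and 12136 ± 1099 in WT. Hectd4 (0.04 ± 0.04), Hace1 (0.03 ± 0.03) and Herc1 (0.02 ± 0.03) had log2 differences above 0, and Ube3b (−0.03 ± 0.02) and Hecw2 (−0.07 ± 0.05) had differences below 0. Ube3a and Herc1 turned to below 0 without WT fluoxetine male 2. The 95% intervals bound what these libraries allow. The lowest bound was that of Hecw2, 10.7% lower in HT, and the highest was that of Herc2, 9.26% higher in HT. Without WT fluoxetine male 2 the Herc2 bound was 6.30% higher, and the outermost bounds were 11.2% lower for Hecw2 and 7.59% higher for Nedd4l. With the dependence on transcript length and GC content as covariates, Huwe1 turned to −0.04 ± 0.01 (adjusted p = 0.048), the 1 setting under which any member was called between HT and WT.

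**Figure D3:**
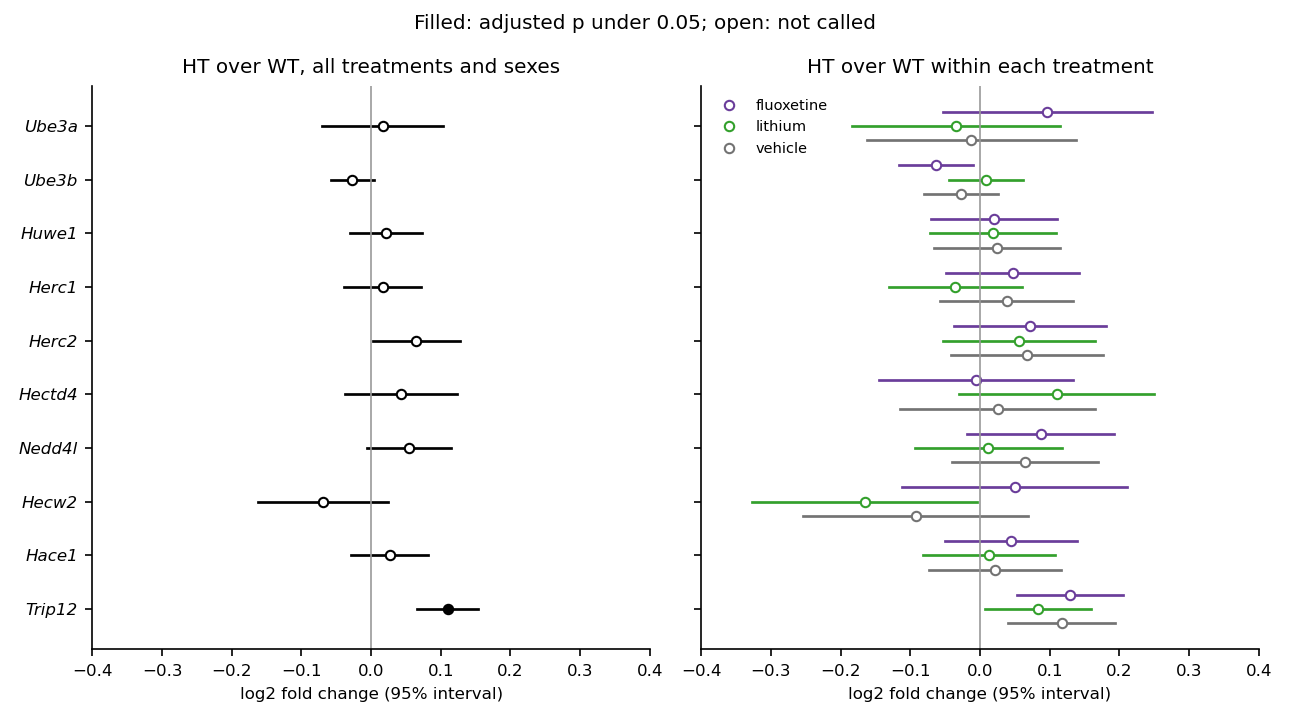
Log2 difference, HT minus WT, for the 9 ligases and Trip12 over all arms and within each treatment; points are limma estimates and lines are 95% intervals, with filled points for adjusted p under 0.05. The Trip12 interval over all arms lies above 0 (0.11 ± 0.02), and no ligase passes the adjusted test in any panel.

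Within each treatment 0 of 9 members were called between HT and WT by limma, edgeR or DESeq2. Under fluoxetine 0.135% of all genes were called and Ube3b alone of the members had an unadjusted p under 0.05 (−0.06 ± 0.03, adjusted p = 0.32). Under lithium 0.573% were called and Hecw2 alone had an unadjusted p under 0.05 (−0.17 ± 0.08, adjusted p = 0.36). Under vehicle 0.152% were called, no member had an unadjusted p under 0.05, and log2 differences ran from −0.09 for Hecw2 to 0.07 for Herc2. Trip12 itself was 0.13 ± 0.04 under fluoxetine, 0.08 ± 0.04 under lithium and 0.12 ± 0.04 under vehicle, with adjusted p of 0.12, 0.33 and 0.25, so no single treatment gave a call for Trip12 either.

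The sexes were also compared apart. In 6 comparisons of HT with WT within a treatment and sex, 0 of 9 members were called by limma, edgeR or DESeq2, where the share of all genes called was 0.0786% in fluoxetine males, 0% in fluoxetine females, 0.225% in lithium males, 0% in lithium females, 0.0112% in vehicle males and 0.00562% in vehicle females. At unadjusted p under 0.05 were 4 members in fluoxetine males (14.4% of all genes), 1 in lithium males (13.7%), 1 in vehicle males (9.18%), 1 in vehicle females (5.94%) and 0 in fluoxetine females (4.09%) and lithium females (9.64%). Without WT fluoxetine male 2 the count in fluoxetine males was 1, Ube3b, with 7.04% of all genes. Under vehicle in males 3 members did not overlap between genotypes, where 2.42% of all genes tested did not. Nedd4l had 4515, 4966, 4814, 4648 and 4698 normalized counts in HT vehicle males, against 4439, 4212, 4342, 4192 and 4028 in WT vehicle males. All 5 HT values were above all 5 WT values, and the log2 difference was 0.16 ± 0.07 (adjusted p = 0.52). Herc1 likewise lay higher in HT vehicle males (9743 to 9964, against 8682 to 9559 in WT) and Ube3b lower (3494 to 3592, against 3633 to 3817 in WT), with adjusted p of 0.70 and 0.63. Tissue markers differed between the same groups. The 8 striatal markers were all higher in HT vehicle males (0 called), with sums of 4627 to 15824, against 4485 to 6892 in WT vehicle males, and the 6 bulb markers were all lower (0 called), with sums of 757 to 7865 in HT, against 2928 to 6712 in WT. None was at 0 in any library. With the striatal and bulb scores as covariates the log2 differences were 0.02 for Nedd4l, 0.06 for Herc1 and −0.06 for Ube3b (adjusted p = 0.92, 0.81 and 0.57). In females given vehicle, Hecw2 was below the WT mean in 5 of 5 HT libraries, at −0.29 ± 0.11 (adjusted p = 0.74). The genotype by sex interaction called 0% of genes under fluoxetine, lithium and vehicle alike (948, 1902 and 1093 genes at unadjusted p under 0.05). Limma, edgeR and DESeq2 called 0 of 9 members in each, with 4, 0 and 1 at unadjusted p under 0.05 (5.32%, 10.7% and 6.14% of all genes). Without WT fluoxetine male 2 the first of these was 1, Herc1, with 2.34% of all genes. Hecw2 was at 0.40 ± 0.16 under vehicle (adjusted p = 0.80).

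Whether either drug acted differently on the ligases in HT and WT cortex was tested by the interaction. The genotype by fluoxetine interaction called 0% of genes (786 at unadjusted p under 0.05), with members between −0.04 for Ube3b and 0.14 for Hecw2. The genotype by lithium interaction called 0% (996 at unadjusted p under 0.05), with members between −0.07 for Herc1 and 0.08 for Hectd4. For both interactions limma called 0 of 9 members, 0 of 9 had an unadjusted p under 0.05, and edgeR and DESeq2 called 0. A call in 1 genotype and not in the other below is therefore no sign of a genotype difference.

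Under lithium, Hecw2 and Hectd4 fell in both genotypes, and no member rose. Hecw2 was 23.0% lower than vehicle in HT cortex and 19.0% lower in WT cortex, and Hectd4 was 13.1% and 18.1% lower. These are 2 of 9 members called in HT, where lithium called 14.6% of all genes (7.14% lower), and 2 of 9 in WT, where it called 4.57% (2.11% lower). The HT and WT comparisons share no libraries, since each genotype had its own vehicle group. In bulk tissue, fewer cells of a type and less RNA per cell cannot be told apart.

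Hecw2 encodes a Nedd4-group ligase that binds and stabilises p73 in human cells. In HT males its normalized counts were 1256, 1420, 1246, 1891 and 1858 under lithium, against 2098, 2805, 2366, 2375 and 2214 under vehicle. In HT females they were 1542, 1484, 1605, 1719 and 2168 under lithium, against 1533, 1788, 1713, 2064 and 2062 under vehicle. The male ranges did not overlap, while in females the highest value was a lithium library. Over both sexes of HT the log2 difference was −0.38 ± 0.08 (95% interval −0.54 to −0.22, adjusted p = 0.00087), with 9 of 10 lithium libraries below the matching vehicle mean.

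In WT males Hecw2 had 1749, 1664, 1785, 1680 and 2391 normalized counts under lithium, against 2371, 2062, 2337, 2383 and 1838 under vehicle. In WT females it had 1536, 1661, 1797, 1961 and 1798 under lithium, against 2503, 2285, 1957, 1999 and 2482 under vehicle. In males 1 lithium library, the fifth, was the highest of all 10, and in females the ranges overlapped by 1 library on each side. The log2 difference in WT was −0.30 ± 0.08 (adjusted p = 0.019), again with 9 of 10 lithium libraries below the matching vehicle mean.

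Hectd4, a giant HECT protein whose substrates are little known, moved the same way. In HT males it had 11219, 10485, 8351, 10012 and 9995 normalized counts under lithium, against 9568, 13289, 14232, 12938 and 12125 under vehicle. In HT females it had 9596, 9752, 10754, 9373 and 10118 under lithium, against 11175, 10287, 10161, 10952 and 10574 under vehicle. The ranges overlapped in both sexes, in males through HT vehicle male 1 alone. The log2 difference in HT was −0.20 ± 0.07 (95% interval −0.34 to −0.06, adjusted p = 0.039), with 9 of 10 lithium libraries below the matching vehicle mean.

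In WT males Hectd4 had 10507, 10422, 8780, 9001 and 9932 normalized counts under lithium, against 12262, 11648, 11075, 11277 and 10075 under vehicle. In WT females it had 8498, 8437, 8044, 8309 and 10638 under lithium, against 11165, 11087, 10362, 11749 and 11890 under vehicle. In males the ranges overlapped through WT vehicle male 5 and in females through WT lithium female 5. All 10 lithium libraries of WT were below the matching vehicle mean. The log2 difference was −0.29 ± 0.07 (adjusted p = 0.0090).

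The Hectd4 call in HT was the less secure of the pair. It was lost on leaving out any 1 of 10 libraries: HT lithium females 1, 2 and 4, HT lithium males 3 and 5, HT vehicle females 1 and 4, and HT vehicle males 2, 3 and 4. Its adjusted p then reached up to 0.096, with a log2 difference of −0.17 without HT lithium male 3 and −0.18 without HT vehicle male 3. With library depth as a covariate it was −0.19 (adjusted p = 0.11), and for Hecw2 in WT −0.30 (adjusted p = 0.061). Markers of striatal medium spiny neurons moved with this comparison. In HT their summed level was 4559 to 6454 (median 5217) under lithium, against 4543 to 15824 (median 7496) under vehicle. None was at 0 in any library. With striatal and olfactory bulb scores as covariates, Hectd4 in HT was −0.14 ± 0.08 (adjusted p = 0.24) and Hecw2 −0.42 (adjusted p = 0.0022). In WT 0 of 8 striatal markers were called (limma; 0 at unadjusted p under 0.05), with sums of 5150 to 7032 under lithium, against 4485 to 7085 under vehicle. Summed oligodendrocyte markers in HT were 77992 to 162123 (median 100973) under lithium, against 90259 to 170039 (median 139801) under vehicle. In WT they were 49026 to 125238 (median 94167) under lithium, against 64635 to 160425 (median 117014) under vehicle. Summed microglial markers in HT were 5657 to 8384 (median 6403) under lithium, against 4926 to 8119 (median 5854) under vehicle. In WT these were 5318 to 6600 (median 6069) under lithium, against 5451 to 7323 (median 6230) under vehicle. None of these was at 0 in any library, and the part of oligodendrocytes and microglia in the result was not tested in either genotype.

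Averaged over genotypes, lithium called 22.6% of all genes (11.2% lower), and 3 of the 9 ligases were lower. Hecw2 was at −0.34 ± 0.06 (adjusted p = 1.2e-05; 18 of 20 lithium libraries below the matching vehicle mean) and Hectd4 at −0.25 ± 0.05 (adjusted p = 0.00019; 19 of 20). Huwe1, which ubiquitinates Mcl1, N-Myc and p53, was the third, 7.16% lower at −0.11 ± 0.03 (adjusted p = 0.011; 17 of 20). Its values were 10156, 11501 and 12636 normalized counts (lowest, median, highest of 20) under lithium, against 11280, 12426 and 13277 under vehicle, so the ranges overlapped. The Huwe1 call was lost with depth as a covariate (−0.08, adjusted p = 0.17), with the striatal and bulb scores (−0.08, adjusted p = 0.096) and with quantile normalization (−0.08, adjusted p = 0.064). Within HT, Huwe1 was at −0.11 (adjusted p = 0.092) and became a call without HT lithium male 1 (−0.13, adjusted p = 0.049). The remaining 6 had log2 differences between −0.06 for Ube3a and 0.05 for Nedd4l and were not called.

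Hecw2 had its largest lithium difference in HT males, 36.1% lower (−0.65 ± 0.11, adjusted p = 0.00017), where lithium called 13.2% of all genes (6.58% lower) and 3 of 9 members. Huwe1 there had 12492, 11475, 10156, 10977 and 11061 normalized counts under lithium, against 12666, 12908, 13142, 12702 and 12737 under vehicle. All lithium values were below all vehicle values, and the log2 difference was −0.20 ± 0.06 (adjusted p = 0.033). Hectd4 was at −0.31 ± 0.10 (adjusted p = 0.031). Herc1 also did not overlap, at 8047 to 9329 under lithium, against 9743 to 9964 under vehicle, and was not called (−0.16 ± 0.07, adjusted p = 0.095). Over all genes tested, 7.30% did not overlap in this comparison. In these males the summed striatal markers were 5155 to 6454 under lithium, against 4627 to 15824 under vehicle, and with the striatal and bulb scores as covariates Hecw2 was at −0.68 (adjusted p = 0.0012), Hectd4 at −0.19 (adjusted p = 0.30) and Huwe1 at −0.15 (adjusted p = 0.25). Quantile normalization ended the Huwe1 call (−0.13, adjusted p = 0.21). Leaving out 1 library ended the call of Huwe1 for HT lithium males 3, 4 and 5 and HT vehicle males 2, 3 and 4, and that of Hectd4 for HT lithium male 3 and HT vehicle males 2, 3 and 4, each with adjusted p up to 0.12.

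In the 3 other groups lithium called 0 of 9 members by limma, where it called 1.23% of all genes in HT females, 1.75% in WT males and 0.814% in WT females. At unadjusted p under 0.05 were 0 members in HT females (14.6% of all genes), 3 in WT males (16.9%) and 2 in WT females (14.5%); edgeR called 0 in all 3, and DESeq2 called Hectd4 in WT females (−0.36, adjusted p = 0.024), as limma did without WT lithium female 5 (−0.43, adjusted p = 0.018). Bulb and inhibitory neuron markers moved with the WT female comparison, with bulb sums of 1602 to 11946 (median 9047) under lithium, against 469 to 9831 (median 3011) under vehicle, and inhibitory neuron sums of 23440 to 30196 under lithium, against 19034 to 28665 under vehicle. Of these markers 6 of 6 and 5 of 6 were higher under lithium (0 called in either list), and none was at 0. The mean log2 level of the inhibitory neuron markers, relative to all libraries, was higher in all 5 lithium libraries (0.141 to 0.224) than in any vehicle library (up to 0.0876). WT lithium female 5 had the lowest such bulb score of the lithium libraries, −0.128. With the striatal and bulb scores as covariates Hectd4 was at −0.32 (adjusted p = 0.061), and the part of inhibitory neuron markers was not tested. Nedd4l in WT males stood above vehicle in every lithium library, at 4454 to 4996 under lithium, against 4028 to 4439 under vehicle (0.17 ± 0.07, adjusted p = 0.21), where 6.79% of all genes did not overlap. The difference between sexes was tested after these values were seen. Depth under lithium also differed between the sexes, as given above. The sex by lithium interaction called 0% of genes in HT (2117 at unadjusted p under 0.05) and 0% in WT (2218). At unadjusted p under 0.05 were 2 of 9 members in HT, Hecw2 and Ube3b (11.9% of all genes), and 0 in WT (12.5%). For Hecw2 the interaction was −0.54 ± 0.16 in HT (adjusted p = 0.25) and 0.10 ± 0.16 in WT (adjusted p = 0.84). In HT females Hecw2 averaged 1704 ± 274 normalized counts under lithium, against 1832 ± 230 under vehicle (SD, n = 5 each).

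**Figure D4:**
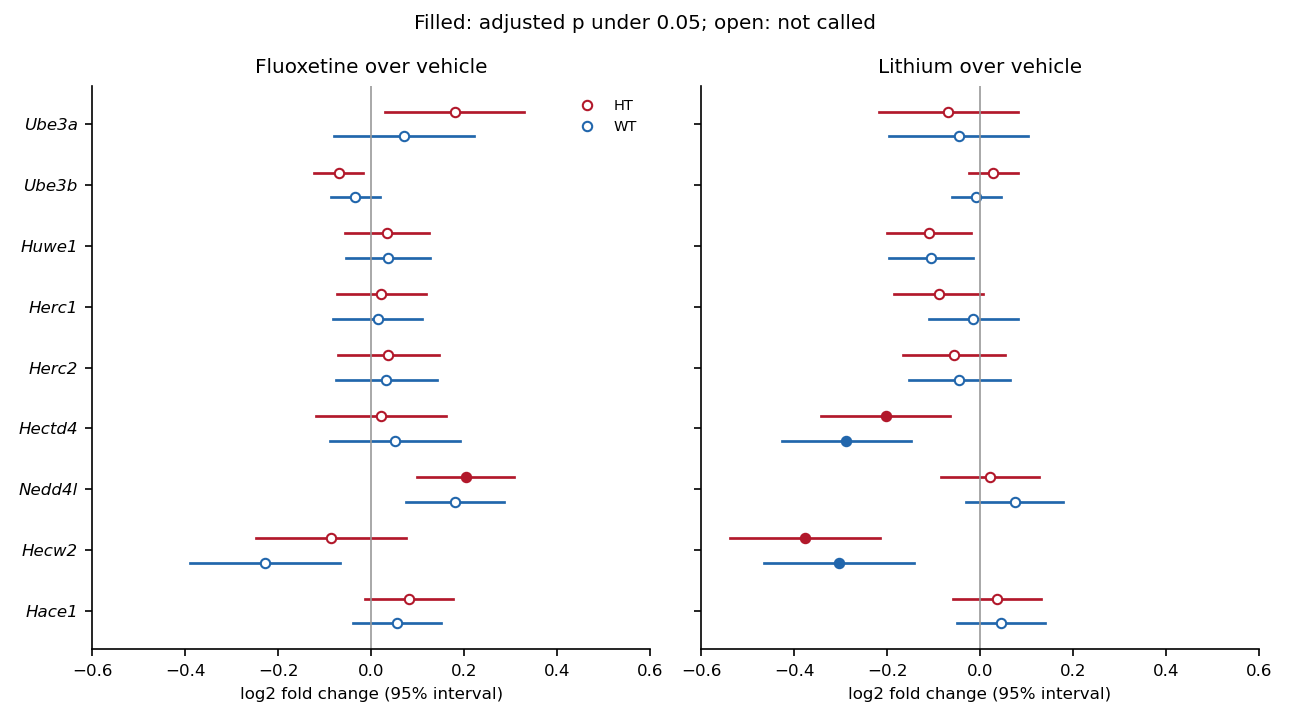
Log2 differences of the 9 ligases for fluoxetine minus vehicle and lithium minus vehicle in HT and in WT; points are limma estimates, lines are 95% intervals and filled points passed the adjusted test. Hecw2 and Hectd4 are filled below 0 under lithium in both genotypes, and Nedd4l is filled above 0 under fluoxetine in HT.

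Under fluoxetine, Nedd4l rose in HT cortex, by 15.1%, and no member fell. It was 1 of 9 members called in HT, where fluoxetine called 10.2% of all genes (4.70% higher). Nedd4l limits the surface level of sodium channels. In HT males it had 5287, 5606, 5125, 6010 and 4613 normalized counts under fluoxetine, against 4515, 4966, 4814, 4648 and 4698 under vehicle. In HT females it had 5385, 4853, 5658, 5429 and 4752 under fluoxetine, against 4807, 5008, 4156, 4015 and 4142 under vehicle. Of the fluoxetine values, 1 of 5 in males and 2 of 5 in females lay within the vehicle range. The log2 difference was 0.20 ± 0.05 (95% interval 0.098 to 0.31, adjusted p = 0.0087), with 9 of 10 fluoxetine libraries above the matching vehicle mean. Ube3a was above that mean in 10 of 10 and was called once HT vehicle male 1 was left out (0.24, adjusted p = 0.016, against 0.18 and 0.11 with it). Without that library 28.4% of all genes had an unadjusted p under 0.05 by limma, against 24.5% with it. Ube3b was called lower without HT fluoxetine male 1 (−0.08, adjusted p = 0.046, against −0.07 and 0.079 with it), and by DESeq2.

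In WT cortex fluoxetine called 0 of 9 members by limma, edgeR or DESeq2, where limma called 0.208% of all genes, and 2 members had an unadjusted p under 0.05, Nedd4l and Hecw2 (10.5% of all genes). Without WT fluoxetine male 2 these were 7 members, with 17.2% of all genes. In WT males Nedd4l had 4966, 4183, 5386, 4413 and 5264 normalized counts under fluoxetine, against 4439, 4212, 4342, 4192 and 4028 under vehicle. In WT females it had 4492, 5100, 5615, 4994 and 5260 under fluoxetine, against 5022, 4449, 4464, 3848 and 4761 under vehicle. The lowest fluoxetine value in males was that of WT fluoxetine male 2, a library that stood apart. The log2 difference was 0.18 ± 0.05 (adjusted p = 0.15; 9 of 10 above the vehicle mean), and without WT fluoxetine male 2 it was 0.21 (adjusted p = 0.023). Hecw2 was at −0.23 ± 0.08 (adjusted p = 0.26), with 9 of 10 fluoxetine libraries below the matching vehicle mean.

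Averaged over genotypes fluoxetine called 14.5% of all genes (6.71% higher) and, of the 9 ligases, Nedd4l alone, 14.2% higher at 0.19 ± 0.04 (adjusted p = 0.00031; 18 of 20 above the vehicle mean). With library depth as a covariate, which moved with fluoxetine, Nedd4l was at 0.21 (adjusted p = 0.067), and in HT at 0.22 (adjusted p = 0.071). Ube3a was above the matching vehicle mean in 19 of 20 fluoxetine libraries. Its counts were 2178, 3989 and 4783 (lowest, median, highest of 20) under fluoxetine, against 3239, 3601 and 5084 under vehicle, so that each group held 1 library that stood apart. The log2 difference was 0.13 ± 0.05 (adjusted p = 0.10). Without WT fluoxetine male 2 it was 0.17 (adjusted p = 0.0027), without HT vehicle male 1 it was 0.15 (adjusted p = 0.022), and without both 0.20 (adjusted p = 5.6e-05). Ube3b (−0.05 ± 0.02, adjusted p = 0.051) and Hecw2 (−0.16 ± 0.06, adjusted p = 0.053) lay just outside the threshold, and each became a call on leaving out a single library, for 11 libraries with Ube3b and 12 with Hecw2. DESeq2 called both lower (adjusted p = 0.033 and 0.041). Huwe1 and Hace1 were called higher without WT fluoxetine male 2 (0.06 and 0.09, adjusted p = 0.034 and 0.039). Values over all genes moved as well. By limma 28.4% of all genes had an unadjusted p under 0.05, with 32.2% without WT fluoxetine male 2 and 30.8% without HT vehicle male 1. Of the members 5, 7 and 5 did so, and calls gained in this way are no sign of a change particular to the ligases.

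Within each sex the fluoxetine calls were few. In HT females, where 6.86% of all genes were called, Nedd4l was the only member called at 0.24 ± 0.07 (adjusted p = 0.038). That call was lost on leaving out HT fluoxetine females 1, 3 or 4 or HT vehicle females 3, 4 or 5 (0.21 to 0.23, adjusted p up to 0.11), and with transcript length and GC slopes as covariates (0.19, adjusted p = 0.17). Ube3b did not overlap there, with 3286, 3503, 3297, 3477 and 3513 normalized counts under fluoxetine, against 3726, 3620, 3558, 3730 and 3847 under vehicle. All 5 fluoxetine values were lower, where 8.33% of all genes did not overlap, at −0.11 ± 0.04 (adjusted p = 0.051 by limma, 0.023 by DESeq2 and 0.043 by edgeR). In HT males (0.595% of genes called), WT males (0.0786%) and WT females (0%), limma, edgeR and DESeq2 called 0 of 9, with 1, 2 and 2 members at unadjusted p under 0.05 by limma (11.3%, 7.05% and 10.8% of all genes). Summed cortical excitatory neuron markers in HT were 50374 to 65383 (median 55229) under fluoxetine, against 49475 to 59712 (median 55903) under vehicle. None was at 0. Their mean log2 level relative to all libraries averaged 0.136 under fluoxetine and −0.0220 under vehicle in HT males. In HT females it averaged 0.0319 under fluoxetine and −0.0997 under vehicle. For inhibitory neuron markers the same measure in HT males ran from −0.207 to −0.0688 under fluoxetine, against −0.0377 to 0.116 under vehicle. In HT females it ran from −0.140 to −0.0148 under fluoxetine, against −0.116 to 0.103 under vehicle. The part of either marker list in the Nedd4l result was not tested.

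Fluoxetine and lithium were also set against each other over both genotypes, a comparison in which 32.9% of all genes were called (16.0% higher, 16.9% lower). Under fluoxetine 5 of the 9 ligases were higher than under lithium, 1 was lower and 3 were not called. Hectd4 had 8266, 11474 and 14342 normalized counts (lowest, median, highest of 20) under fluoxetine, against 8044, 9842 and 11219 under lithium, a difference of 0.28 ± 0.05 (adjusted p = 1.2e-05; 18 of 20 above the lithium mean). Hecw2 was at 0.18 ± 0.06 (adjusted p = 0.010; 16 of 20) and Nedd4l at 0.14 ± 0.04 (adjusted p = 0.0020; 17 of 20). These 3 kept their calls when the dependence of each library on transcript length and GC content was entered as covariates (0.20, 0.17 and 0.11, adjusted p = 7.5e-05, 0.045 and 0.032). Ube3a (0.18 ± 0.05, adjusted p = 0.0058), Huwe1 (0.14 ± 0.03, adjusted p = 0.00041) and Ube3b (−0.06 ± 0.02, adjusted p = 0.0074) lost theirs (0.02, 0.04 and −0.05, adjusted p = 0.61, 0.062 and 0.059). Herc1 (0.07 ± 0.03) and Herc2 (0.08 ± 0.04) were called without WT fluoxetine male 2 (0.10 and 0.12, adjusted p = 0.0014 and 0.00070), and Herc2 also without WT lithium female 5 (0.10, adjusted p = 0.038). By limma 42.2% of all genes had an unadjusted p under 0.05, and 44.5% without WT fluoxetine male 2. Hace1 was at 0.03 ± 0.03 (adjusted p = 0.57).

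Between the sexes 0 of 9 members were called by limma, edgeR or DESeq2, where limma called 1.19% of all genes, and 2 members had an unadjusted p under 0.05 (19.7% of all genes). Ube3a had 2178, 3587 and 5084 normalized counts (lowest, median, highest of 30) in males, against 3071, 3870 and 4783 in females. Male values lay lower, with 26 of 30 below the matching female mean, although the highest of all was male. The log2 difference was −0.12 ± 0.04 (adjusted p = 0.12), and without HT vehicle male 1 it was −0.14 (adjusted p = 0.024). Without that library 25.6% of all genes had an unadjusted p under 0.05 by limma. Ube3b was at 0.04 ± 0.02 (adjusted p = 0.14). The X-linked Huwe1 was at −0.03 ± 0.03 (adjusted p = 0.55). Hectd4 was at 0.08 ± 0.04 (adjusted p = 0.27) and became a call without both libraries that stood apart (0.11, adjusted p = 0.039), as did Ube3a (−0.11, adjusted p = 0.017).

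Of 17 further HECT ligases, all tested, 1 was called between HT and WT over all arms, where 5.06% of all genes were called. Wwp2, a Nedd4-group ligase, was lower in HT at −0.07 ± 0.02 (adjusted p = 0.029), and the median of the 17 was 0.01. Under lithium Wwp2 fell in HT (−0.11 ± 0.03, adjusted p = 0.020) and in WT (−0.11 ± 0.03, adjusted p = 0.031). Lithium called 14.6% of all genes in HT and 4.57% in WT. In HT, Arel1, which ubiquitinates antagonists of apoptosis inhibitors in human cells, also fell under lithium (−0.09 ± 0.03, adjusted p = 0.023), and Hectd3 rose (0.12 ± 0.04, adjusted p = 0.046). Under fluoxetine Hectd2 (0.26 ± 0.08, adjusted p = 0.032) and Hecw1 (0.24 ± 0.08, adjusted p = 0.035), the closest relative of Hecw2, rose in HT, where 10.2% of all genes were called. In WT, limma called 0 of 17 and 0.208% of all genes. At unadjusted p under 0.05 were 1 of 17 and 10.5% of all genes in WT.

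Of 15 genes for ubiquitin, E1 and E2 enzymes and adaptors, Ube2l3, the E2 that serves many HECT ligases, was the one called between HT and WT (−0.07 ± 0.02, adjusted p = 0.020). Over all genes 5.06% were called there. Under fluoxetine in HT, Rps27a, which encodes ubiquitin fused to a ribosomal protein, fell (−0.32 ± 0.06, adjusted p = 0.00088), and the E2 gene Ube2d1 rose (0.18 ± 0.06, adjusted p = 0.039). That comparison called 10.2% of all genes. In WT neither drug called any of the 15 by limma (0.208% of all genes under fluoxetine, 4.57% under lithium). At unadjusted p under 0.05 were 3 under fluoxetine and 2 under lithium (10.5% and 18.6% of all genes). Of 13 reported substrates or partners, limma called 0 between HT and WT, with 2 at unadjusted p under 0.05 (20.5% of all genes). Under fluoxetine in HT, Rac1, the target of Hace1, rose (0.13 ± 0.03, adjusted p = 0.0033). Under fluoxetine in WT, Arc, a synaptic gene reported as a Ube3a substrate, fell (−1.08 ± 0.23, adjusted p = 0.024). Lithium called 0 of 13 in HT and 0 in WT by limma. At unadjusted p under 0.05 were 3 and 1 (28.4% and 18.6% of all genes). Averaged over genotypes, where lithium called 22.6% of all genes, Snhg14 was called lower by limma (−0.24 ± 0.08, adjusted p = 0.025).

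Over the 60 libraries, of 36 pairs of ligases, 14 had a Pearson r over 0.5 and the median was 0.426, or 0.357 after group means were removed. Herc1 and Herc2 were the closest pair at 0.87. Hecw2 had r over 0.5 with Hectd4 alone (0.54). All 8 negative pairs involved Ube3b, and Ube3a with Ube3b was lowest at −0.62. The genes most like each member among 12839 considered were Taok1 for Ube3a (r = 0.905), Rab1b for Ube3b (0.824), Ash1l for Huwe1 (0.917), Gabrb2 for Herc1 (0.890), Mycbp2 for Herc2 (0.930), Dync1h1 for Hectd4 (0.896), Rgs7bp for Nedd4l (0.894), Pak7 for Hecw2 (0.854) and Agfg1 for Hace1 (0.739). These are descriptions over libraries that share treatment, depth and transcript-length dependence.

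A feature that the members share is transcript length. The longest coding transcript is over 7 kb for 7 of the 9, against a median of 3362.5 bases over the genes considered, with Hectd4 at 15482, Herc2 at 15261, Herc1 at 15153 and Huwe1 at 14579 bases, Ube3b at 5194 and Hace1 at 3785. Each library's dependence on transcript length was measured as the slope of its values over 12473 genes. Its correlation with the members' levels was 0.885 for Huwe1, 0.759 for Herc2, 0.733 for Ube3a, 0.704 for Herc1, 0.562 for Hectd4, 0.459 for Hace1, 0.426 for Nedd4l, 0.175 for Hecw2 and −0.496 for Ube3b (n = 60). WT fluoxetine male 2 had a slope of −0.199, against −0.0544 to 0.0751 in all others. Without it the correlations were 0.829 for Huwe1, 0.614 for Ube3a, 0.590 for Herc2, 0.546 for Hectd4 and 0.503 for Herc1. They were 0.433 for Nedd4l, 0.253 for Hace1, 0.118 for Hecw2 and −0.512 for Ube3b. The 100 genes most like Herc2 had a median transcript of 9641.5 bases, and those most like Ube3b 1963.5. The slope varied between groups. Its means in males were 0.0246 in HT fluoxetine, −0.0313 in WT fluoxetine, −0.0116 in HT lithium, −0.0309 in WT lithium, 0.0146 in HT vehicle and −0.0154 in WT vehicle. The WT fluoxetine male mean holds WT fluoxetine male 2, and the median there was 0.0101. In females the means were 0.0433 in HT fluoxetine, 0.0464 in WT fluoxetine, 0.00165 in HT lithium, −0.0283 in WT lithium, −0.00795 in HT vehicle and −0.00520 in WT vehicle. Under lithium the HT male mean was below that of vehicle and the HT female mean above it.

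**Figure D5:**
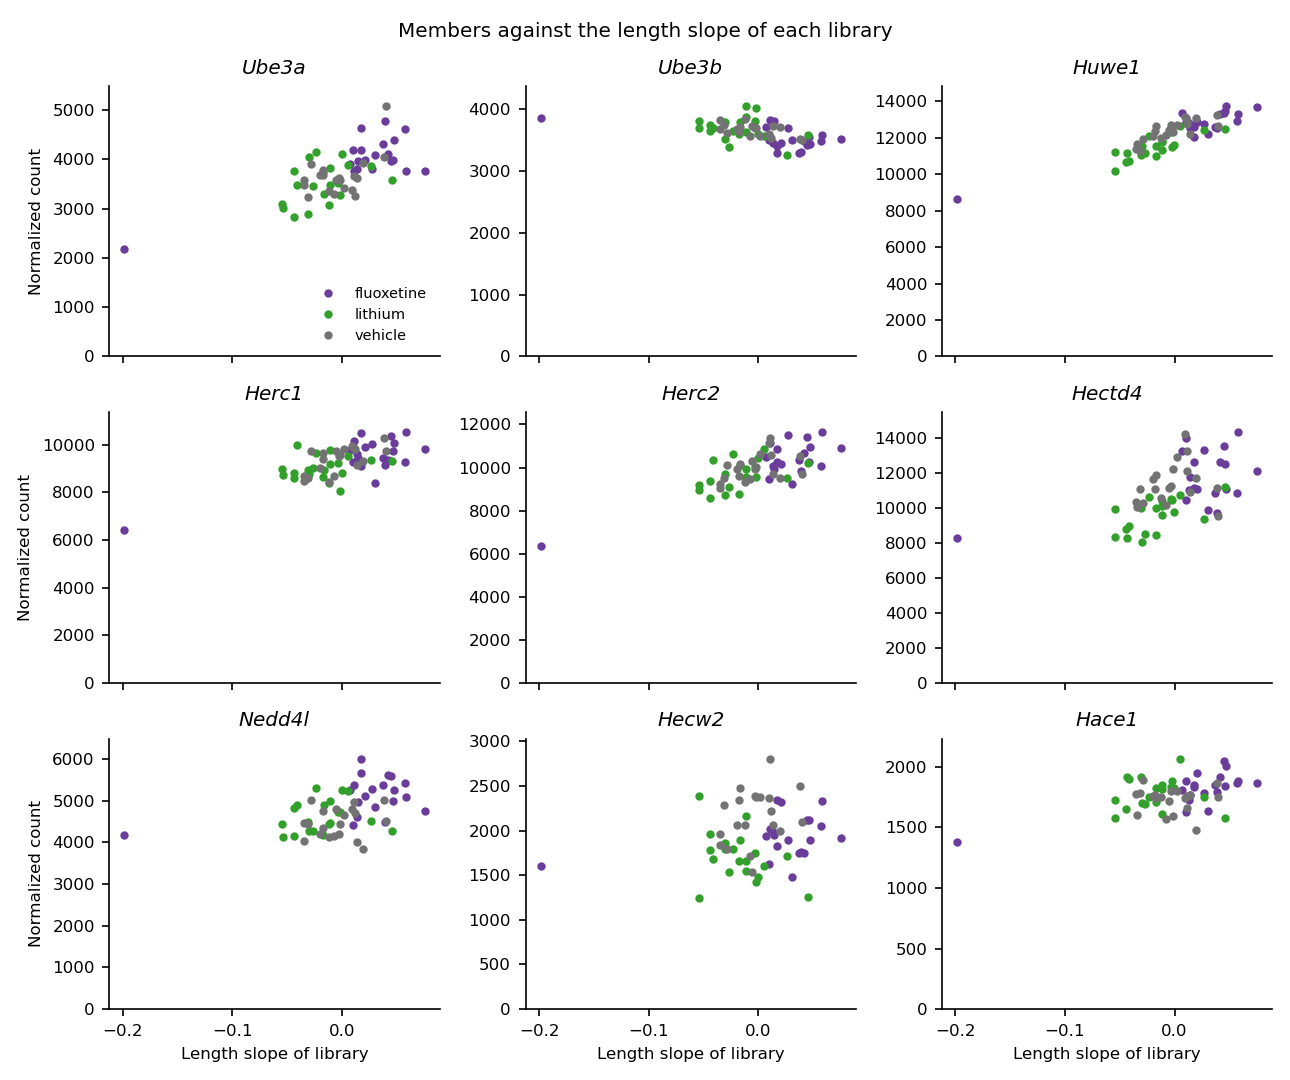
Normalized counts of the 9 ligases, a panel each, against each library's transcript-length slope, 1 point a library and 60 in all, with treatments by colour. Huwe1 rises with the slope (r = 0.885), Ube3b declines (r = −0.496) and Hecw2 shows little relation (r = 0.175); the leftmost point is WT fluoxetine male 2.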

How the data were processed

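Per the labels' protocols, RNA from prefrontal cortex was made into TruSeq stranded mRNA libraries. The deposited table holds the authors' normalized counts (a signal unit, with each library's counts divided by a size factor) for 18088 genes and 60 libraries. GRCm38, DESeq2 1.19.11, R 3.6.0 and Salmon 0.11.2 are named in the submitters' processing notes; annotation, strand setting and filters are not given in the sources used here. Whole reads were recovered for 100% of values within 0.01, giving 25135647 to 36624113 reads a library, which limits precision. Reads shared by similar gene copies may be split between them. IDs were matched to GENCODE M21 (18077 matched, 11 not).

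The test was limma-trend 3.58.1 (R 4.3.3) on log2(normalized count + 1), with 12 group means, 48 residual degrees of freedom, genes kept at 10 or more in at least 5 libraries (17804 tested, 284 removed) and Benjamini-Hochberg adjustment over all genes in each of 33 contrasts; adjusted p under 0.05 was called. Fold changes and differences are on that log2 scale. Since the table holds no raw counts, edgeR 4.0.16 and DESeq2 1.42.0 on the recovered reads were alternatives, with 12 other settings and the leaving out of each library. The fit was tested on simulated data. The 9 members are named in every averaged contrast, and from 3 further lists up to 4 called genes a contrast with the smallest p; some of these are not reported here. The members and lists were chosen with earlier results of these data known. Replicate numbers were not used to pair libraries, as no pair of groups had every same-number correlation over 0.1.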

Additional observations from a re-analysis of the deposited data

Results flagged for a closer look

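A library was singled out where its gap to the nearest of the 5 in its group exceeded the 95% limit of Dixon's test. Over 108 sets of 9 genes and 12 groups, 14 values in 10 libraries did so, where chance gives about 5% of sets. Ube3a, the Angelman syndrome gene, had 4 of them. It was at 4639.47 normalized counts in HT fluoxetine male 4 (others 3800 to 3983), 3070.65 in HT lithium female 1 (others 3824 to 4108), 5084.33 in HT vehicle male 1 (others 3267 to 3666) and 2178.4 in WT fluoxetine male 2 (others 3766 to 4197).

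WT fluoxetine male 2 was also low for Huwe1, at 8617.65 (others 12532 to 13379), and for Herc1, at 6412.18 (others 9265 to 10164). WT lithium female 5 was high for 3 members, with Herc2 at 10638.8 (others 8597 to 9118), Hectd4 at 10637.9 (others 8044 to 8498) and Nedd4l at 5303.12 (others 4162 to 4280). WT lithium male 5 was high for Hecw2, at 2391.15 (others 1664 to 1785). Ube3b was at 3688.61 in HT fluoxetine male 1 (others 3398 to 3456) and at 3519.68 in WT vehicle female 1 (others 3679 to 3736). Hace1 was at 1639.14 in HT fluoxetine female 2 (others 1833 to 1870) and at 1913.51 in WT lithium female 4 (others 1691 to 1751).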

How the results depend on the processing

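Of 297 results for single members (9 genes in 33 contrasts), 19 were called and 8 of these kept their call under all 14 alternatives and every left-out library; 0 called results changed sign. Of 278 uncalled results, 257 were never called and 125 changed sign somewhere. With length and GC slopes as covariates, HT minus WT over all arms called 1 member, Huwe1, lower at −0.0416 (adjusted p = 0.048) where it had been at 0.02; the count was then 0 for fluoxetine in HT females and 3 for fluoxetine minus lithium. Without both libraries that stood apart, member counts were 2 for fluoxetine in HT, 1 for fluoxetine in WT, 2 for male minus female, 3 for fluoxetine in HT females, 5 for lithium in HT males, 1 for lithium in WT females and 6 for fluoxetine averaged over genotypes. The depth covariate left 1 for lithium in HT, 1 for lithium in WT and 0 for fluoxetine averaged. Striatal and bulb scores gave 2 for fluoxetine in HT, 1 for lithium in HT and 1 for lithium in HT males, 2 for fluoxetine in HT females and 3 for fluoxetine averaged. For fluoxetine in HT, quantile normalization and DESeq2 gave 2. For fluoxetine in HT females, TMM, quantile normalization, no filter, a filter at 50, DESeq2 and edgeR gave 2. For fluoxetine averaged, TMM and no filter gave 2, and quantile normalization, a filter at 50, DESeq2, edgeR and only the libraries compared gave 3. For lithium in WT females, quantile normalization, a filter at 50 and DESeq2 gave 1. With only the libraries compared, lithium gave 1 in HT males and 1 in WT males. The share of all genes called under each setting is not given beside these counts, and for several settings it moved too, as given below. A change in a member count is therefore no sign of a change particular to the ligases. The cause was not tested.

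With a library left out, member counts ranged over 1 to 2 for fluoxetine in HT, 0 to 1 in WT, 0 to 2 in HT females and 1 to 5 averaged; 1 to 3 for lithium in HT, 2 to 2 in WT, 1 to 3 in HT males and 0 to 1 in WT females; 0 to 1 for male minus female; 6 to 8 for fluoxetine minus lithium; and 0 for every genotype and interaction contrast. Counts over all genes also moved, and are given here for some settings only. Without both libraries that stood apart they were 3094 against 1824 for fluoxetine in HT, 671 against 37 in WT and 1038 against 211 for male minus female. With depth they were 778 for fluoxetine in HT, 1 in WT, 457 (against 814) for lithium in WT and 603 for male minus female. With the striatal and bulb scores they were 1459 (against 2595) for lithium in HT, 1280 in WT, 62 for fluoxetine in WT and 34 for male minus female.

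Replicate numbers were also entered as a replicate block. No pairing was found by the rule used: of 66 pairs of groups, 0 had every same-number correlation over 0.1. The median over pairs of groups was −0.001 for same-number libraries and 0.002 for different numbers. That rule is strict, so it cannot exclude weaker pairing or pairing in some groups only. The block moved 1 member count, fluoxetine averaged over genotypes, to 2, through Hecw2 at −0.16 (adjusted p = 0.042).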
